A study of Mus musculus with 12 samples.

Results

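Tmem253 is 1 of 35501 genes with annotated transcripts in the hippocampal RNA-Seq values of 12 male C57BL/6 mice (C57BL/6J in the study's methods) at postnatal day 70. The gene was selected on its level, summed over all its annotated transcripts, which was higher in all 9 exposed mice than in any control mouse, so the comparison of exposed with control mice was used to choose it and is given here as a description with no test. There were 3 mice in each of 4 groups. Control mice came from dams offered water only and stayed undisturbed with the dam. Ethanol mice came from dams that could drink 10% ethanol in water by choice during gestation, and the study's methods kept it on offer until postnatal day 10. Stress mice came from water-only dams and spent 3 h a day alone, away from the dam and the other pups, from postnatal day 2 to day 14. Ethanol + stress mice had both exposures. Pups of 1 litter were divided between stress and no stress, the litter of each mouse is not among the labels, and littermates may therefore stand in different groups. Ethanol intake was voluntary, and the dissected hippocampus holds many cell types, so that fewer cells of a type and less RNA per cell cannot be told apart.

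Tmem253 encodes a transmembrane protein whose role in the brain is little described. Many mammalian genes have more than 1 promoter and several splice forms, and a gene can also gain reads without a change at its own promoter when transcription of an upstream gene on the same strand runs past its end, or when a gene on the other strand shares bases with it. The level of a gene in RNA-Seq is therefore read best beside its separate transcripts and beside the genes next to it.

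Tmem253 (ENSMUSG00000072571.3) lies on the plus strand at chr14:52015658-52019794 of GRCm38 and has 4 annotated transcripts. Tmem253-201 is the full-length protein-coding transcript, with 1234 bases in 7 exons from 52016865 to 52019794. Tmem253-203 is protein-coding with 704 bases in 6 exons, and Tmem253-204 is protein-coding with 415 bases in 2 exons. Tmem253-202 is a processed transcript with no annotated reading frame, of 347 bases in 3 exons from 52015658 to 52016941. It starts 1207 bp upstream of Tmem253-201 and ends where the first exon of the other transcripts ends.

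The 4 transcripts overlap, and each has bases that no other holds. The lines below show 1 such stretch of 30 bases for each transcript, with the first 15 bases in lower case and the 15 bases beyond the exon join (or, for Tmem253-204, beyond the point where the other coding transcripts leave the exon) in capitals.
Tmem253-202: tcctgtactagctcgCTCTCTGACAGACTA
Tmem253-201: ccttgcatctggaagGTGCGGGCCATGATG
Tmem253-203: ccttgcatctggaagGTACTGGTAAATGAA
Tmem253-204: ctactggtgctggcgGTGAGGCCAGGTTGC
Tmem253-201 and Tmem253-203 share the last 15 bases of exon 4 at 52017996-52018010 and go on to exon 5 at 52018542 and 52018653, respectively. The Tmem253-204 stretch lies at 52017183-52017212, and the Tmem253-202 stretch joins exon 2, ending at 52015986, to exon 3, beginning at 52016833.

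The RefSeq start of the gene falls at the Tmem253-201 start. A window of 300 bases around that start, chr14:52016615-52016914 on the plus strand of GRCm38.p6, with sequence from RefSeq, is shown here because its last 82 bases, in capitals, are also transcribed as exon 3 of Tmem253-202.
Tmem253 promoter window: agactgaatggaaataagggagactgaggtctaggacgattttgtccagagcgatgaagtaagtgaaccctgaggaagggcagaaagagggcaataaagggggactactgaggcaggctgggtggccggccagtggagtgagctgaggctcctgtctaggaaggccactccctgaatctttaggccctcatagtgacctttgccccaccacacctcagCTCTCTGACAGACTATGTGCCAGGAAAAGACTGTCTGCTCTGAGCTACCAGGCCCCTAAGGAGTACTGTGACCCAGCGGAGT

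**Figure D1:**
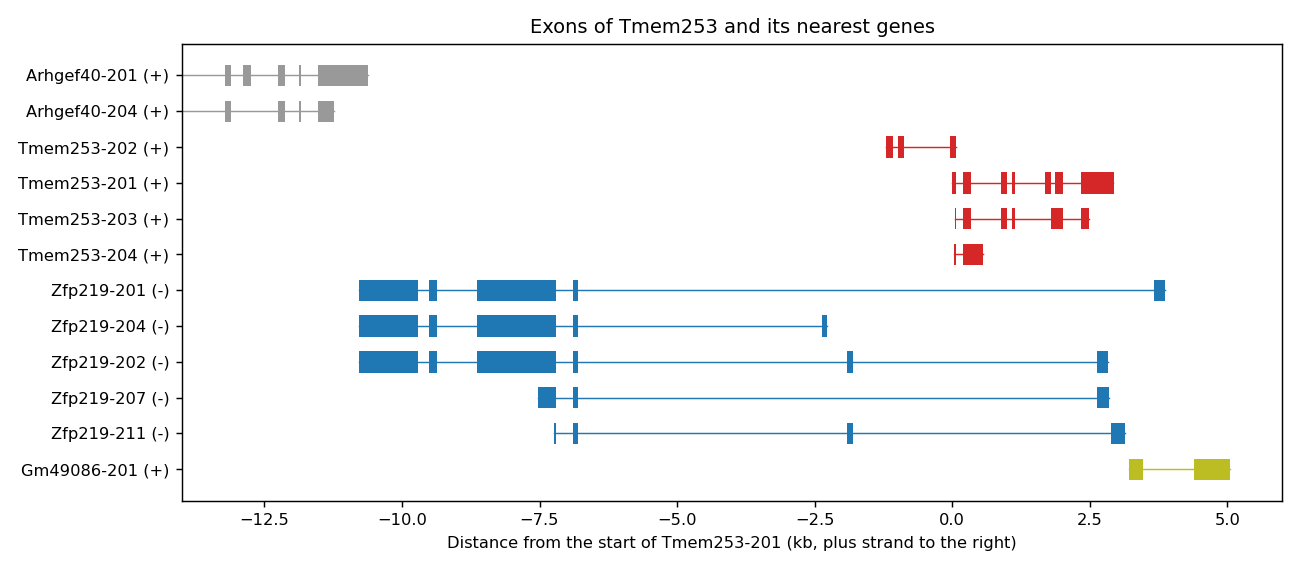
Exons (boxes) and introns (lines) of the 4 Tmem253 transcripts, of selected transcripts of Zfp219 and Arhgef40 and of Gm49086, drawn to scale against the distance in kb from the start of Tmem253-201, with the strand of each in brackets and Arhgef40 shown only in its last part. The first exon of Tmem253-202 begins 1207 bp upstream, Arhgef40 ends well before it, and Zfp219 transcripts cross Tmem253 on the other strand, with exons of Zfp219-202, Zfp219-207 and Zfp219-211 over the last exon of Tmem253-201.

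The deposited values are TPM, a level per transcript length relative to all transcripts of a library, which the authors also scaled between libraries. The Tmem253 sum in control replicates 1, 2 and 3 was 0.233, 0.419 and 0.741 TPM. It was 4.29, 3.48 and 4.78 TPM in the ethanol mice, 4.43, 1.63 and 1.79 TPM in the stress mice, and 3.97, 3.12 and 3.46 TPM in the ethanol + stress mice. The exposed and control mice did not overlap, an order that the choice of the gene fixed. The exposed value nearest the controls, stress replicate 2 at 1.63 TPM, stood above the highest control value, replicate 3 at 0.741 TPM. The order of all 9 exposed values above all 3 control values was found in 72 of 18419 tested gene sums, or 0.391%, and the opposite order in 38, or 0.206%. With each library rescaled to a common total these counts were 39 and 59. Among those 72 genes Tmem253 had the widest gap between the groups and the highest fitted difference, both on the log2(TPM + 0.5) scale. Both ranks come from the comparison that chose the gene.

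The mean sum was 0.464 ± 0.257 TPM in control mice (SD, n = 3), 4.18 ± 0.659 TPM in ethanol mice (SD, n = 3), 2.62 ± 1.57 TPM in stress mice (SD, n = 3) and 3.52 ± 0.428 TPM in ethanol + stress mice (SD, n = 3). On the log2(TPM + 0.5) scale, which understates changes of low values, the fitted difference from control was 2.30 for ethanol, 1.62 for stress and 2.09 for ethanol + stress, each with a standard error of 0.30 from a limma model of all 12 libraries. The 3 differences share the same 3 control mice. In each group alone all 3 exposed values lay above all 3 control values, as they did in 5.07% of all gene sums for ethanol, 3.81% for stress and 5.63% for ethanol + stress. The spread within the stress group came from replicate 1, whose value of 4.43 TPM lay among the ethanol mice, whereas the other 2 stress mice were the lowest of the exposed mice.

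Differences among the exposed groups were not used to choose the gene and were tested with limma, two-sided, with a call at an unadjusted p under 0.01 and Benjamini-Hochberg adjustment over all 18419 gene sums. In that model 0.668% of genes were called between ethanol + stress and ethanol, 0.706% between ethanol + stress and stress, and 0.662% between ethanol and stress. Tmem253 was called in none of them. Ethanol + stress was 0.22 lower than ethanol on the log2 scale (SE 0.30, 95% interval -0.88 to 0.45, limma unadjusted p = 0.487, limma adjusted p = 0.999874). Ethanol + stress was 0.47 higher than stress (95% interval -0.19 to 1.13, limma unadjusted p = 0.148, limma adjusted p = 0.887). Ethanol was 0.69 higher than stress (95% interval 0.02 to 1.35, limma unadjusted p = 0.0433, limma adjusted p = 0.999973). These last results rest on stress replicate 1, because without it ethanol was 1.07 higher than stress and ethanol + stress 0.86 higher than stress, and both passed the threshold. The intervals leave room for differences of more than 1 log2 unit from stress, so the 3 exposed groups are not shown to be alike.

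All of these levels rest on few reads. The library depth recovered from the deposited values (from the step that 1 read pair makes in genes with 1 transcript) was 12050000 to 13300000 read pairs in control and 12190000 to 14950000 in exposed libraries. The Tmem253 sum corresponded to 1.99, 3.24 and 5.97 read pairs in the control mice. In the ethanol mice it corresponded to 15.4, 10.9 and 15.7 read pairs, in the stress mice to 12.4, 8.51 and 8.66, and in the ethanol + stress mice to 14.1, 9.90 and 10.9. The groups did not overlap in read pairs either, but single libraries overlapped within counting error. For example, the exact Poisson 95% interval of control replicate 3, at 6 rounded read pairs, was 2.20 to 13.1, and that of stress replicate 2, at 9, was 4.12 to 17.1.

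Pooled over mice, the sum was 2.93 read pairs per 10000000 in control libraries (exact Poisson 95% interval 1.44 to 5.14) and 8.56 in exposed libraries (6.98 to 10.3). The ethanol group had 10.2 read pairs per 10000000 (7.33 to 13.8), the stress group 7.10 (4.86 to 10.3) and the ethanol + stress group 8.42 (5.89 to 11.8). These intervals cover counting error only and not the spread between mice. On the log2 scale of scaled read pairs plus 1 the fitted difference of the exposed mice from control was 1.41, against 2.00 in TPM.

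**Figure D2:**
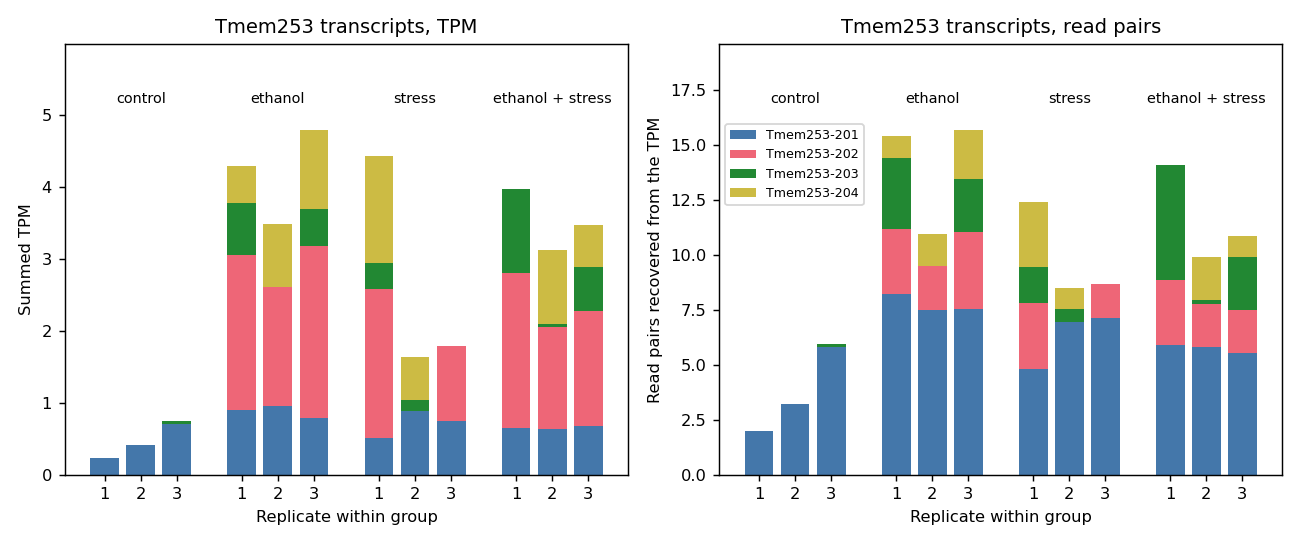
Tmem253 in each of the 12 mice as stacked bars of its 4 transcripts, in TPM (left) and as read pairs recovered from the TPM (right), with replicates 1 to 3 of each group along the x axis. Control bars reach 0.741 TPM or 5.97 read pairs and consist almost wholly of Tmem253-201, whereas every exposed bar is higher and holds other transcripts, which make up more of the bar in TPM than in read pairs.

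Tmem253-201 was the one transcript listed above 0 in all 12 mice. Its level was 0.233, 0.419 and 0.700 TPM in control mice, 0.900, 0.952 and 0.783 TPM in ethanol mice, 0.517, 0.888 and 0.741 TPM in stress mice, and 0.644, 0.631 and 0.679 TPM in ethanol + stress mice. For this full-length coding transcript 5 of 9 exposed mice lay above every control mouse, among them all 3 ethanol mice. The stress and ethanol + stress groups overlapped with control, and all 3 ethanol + stress mice lay below control replicate 3. Its fitted difference from control over the exposed groups was 0.41 on the log2(TPM + 0.5) scale (SE 0.22), and 0.24 to 0.60 with 1 replicate left out. It corresponded to at most 8.23 read pairs in a library. In 11 of 12 libraries it lay above 3 read pairs, the limit set here, at or under which a value was not read as different from 0.

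Tmem253-202, the upstream transcript, was listed at 0 in all 3 control mice and in stress replicate 2. It stood at 2.15, 1.65 and 2.39 TPM in ethanol mice, at 2.06 and 1.05 TPM in stress replicates 1 and 3, and at 2.15, 1.43 and 1.60 TPM in ethanol + stress mice. Listed levels were thus present in 8 of 9 exposed mice and in no control mouse. Its short length makes each read pair weigh heavily in TPM: the highest of these values corresponded to 3.51 read pairs, and 3 read pairs were worth 2.05 to 2.59 TPM in the different libraries. Only ethanol replicate 3 lay above that limit, and no fold against control is given for this reason.

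The other 2 transcripts were as thinly covered. Tmem253-203 was at 0, 0 and 0.0405 TPM in control mice and between 0 and 1.17 TPM in exposed mice, with 6 of 9 above every control and ethanol + stress replicate 1 the highest at 5.22 read pairs. Tmem253-204, which runs on past exon 2, was at 0 in every control mouse and above 0 in 7 of 9 exposed mice, the highest being stress replicate 1 at 1.49 TPM. It reached at most 2.96 read pairs in a library. Both transcripts were listed above 0 in 6 of 9 exposed mice, and nearly all of these values lay at or under 3 read pairs.

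The share of each transcript in the difference between exposed and control mice depended on the unit. In TPM the means differed by 2.97, of which 54.1% was Tmem253-202, 23.1% Tmem253-204, 12.8% Tmem253-203 and 10.0% Tmem253-201. In read pairs the means were 3.73 and 11.8, and of the difference 36.1% was Tmem253-201, 27.3% Tmem253-202, 20.8% Tmem253-203 and 15.8% Tmem253-204. Tmem253-201 was thus the smallest contributor per length and the largest by reads. Within the exposed mice Tmem253-202 was 44.3% ± 17.2 of the sum in TPM and 17.8% ± 7.03 of it in read pairs (SD, n = 9).

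How reads are divided among overlapping transcripts is an estimate of the authors' software. Of the 31-base words in each transcript, 270 of 317 in Tmem253-202 occur in no other Tmem253 transcript, which is 85.2%. The figure is 220 of 385 for Tmem253-204, or 57.1%, and 580 of 1204 for Tmem253-201, or 48.2%. Tmem253-203 has 104 own words of 674, or 15.4%, and is the transcript least separable from the rest. For Tmem253-201, the one transcript above 3 read pairs in most libraries, the limma differences among the exposed groups on the log2 scale were -0.26 between ethanol + stress and ethanol (95% interval -0.85 to 0.33), -0.07 between ethanol + stress and stress (-0.65 to 0.52) and 0.19 between ethanol and stress (-0.40 to 0.78), with adjusted p-values of 0.983 or more. No such difference is given for the other 3 transcripts, whose values lay at or under 3 read pairs in most libraries.

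The genes beside Tmem253 were compared next, to see whether the levels of any of them moved with it. The 5 nearest annotated genes on each side were considered together with Hnrnpc, the nearest gene with a tested level on the side of higher coordinates. Of these 11 genes, 6 had values in the table and 3 were abundant enough to test, namely Zfp219, Arhgef40 and Hnrnpc. The other 5 genes, among them Gm49086 and Gm49256, both annotated on the plus strand beyond the end of Tmem253, were not analysed here. None of the 3 tested genes passed the threshold against control in any exposed group or in their mean, 0 of 12 limma tests at an unadjusted p under 0.01, and 1 of the 12 had an unadjusted p under 0.05. Over all genes the call rate was 0.652% in the mean of the exposed groups, 0.679% for ethanol against control, 0.51% for stress against control and 0.972% when both exposures were combined.

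Arhgef40 encodes a guanine nucleotide exchange factor. It is the nearest upstream gene on the same strand, at chr14:51984719-52006251, and its end lies 9406 bp before the first exon of Tmem253-202. Its sum was 17.4, 18.6 and 20.9 TPM in control mice, 22.1, 24.7 and 14.7 TPM in ethanol mice, 16.1, 17.8 and 16.0 TPM in stress mice, and 14.1, 21.3 and 21.4 TPM in ethanol + stress mice. The groups overlapped throughout. The fitted difference of the exposed mice from control was -0.04 on the log2 scale (SE 0.16, 95% interval -0.39 to 0.31, limma adjusted p = 0.983).

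Zfp219 encodes a zinc finger transcription factor and lies on the minus strand at chr14:52006077-52020733, so that Tmem253 falls wholly within its span. Its sum was 16.7, 20.6 and 18.3 TPM in control mice, 19.0, 18.9 and 17.7 TPM in ethanol mice, 19.6, 19.5 and 16.4 TPM in stress mice, and 23.4, 24.1 and 21.8 TPM in ethanol + stress mice. The ethanol and stress mice overlapped with control, and the ethanol + stress mice stood above all other mice. The fitted difference of ethanol + stress from control was 0.31 on the log2 scale (SE 0.11, 95% interval 0.08 to 0.55). Its limma unadjusted p = 0.0126 narrowly missed the threshold of 0.01, and its limma adjusted p = 0.791. Over all genes tested, 5.63% had all 3 ethanol + stress values above all 3 control values. With each library rescaled to a common total this difference was 0.18. The fitted difference of all exposed groups from control, without rescaling, was 0.11 (SE 0.09, limma adjusted p = 0.979), and it was 0.03 after rescaling. The ethanol mice, at 3.48 to 4.78 TPM of Tmem253, had Zfp219 levels within the control range.

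The overlap between Zfp219 and Tmem253 exons was confined to the last exon of Tmem253-201, where 266 of 589 bases are also exonic, on the other strand, in Zfp219-202, Zfp219-207 or Zfp219-211. Of the 1204 words of Tmem253-201, read on both strands, 206 also occur in Zfp219, and no word of Tmem253-202, Tmem253-203 or Tmem253-204 occurs in another gene. The libraries were made with a stranded kit, but whether counting used the strand is not given in the sources used here, so the Tmem253-201 values are uncertain to that extent. Zfp219-202 was at 0 in all 3 control mice and at 0 to 2.37 TPM in exposed mice, with 6 of 9 above 0. Zfp219-207 and Zfp219-211 were above 0 in some mice of both control and exposed groups. The 3 Tmem253 transcripts with no shared words made up 90.0% of the difference in TPM and 63.9% of it in read pairs. These shares come from the comparison that chose the gene and from transcripts at or under 3 read pairs in most libraries. The part of Zfp219 reads in the Tmem253 levels was not tested.

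On the other side, Hnrnpc, which encodes a nuclear protein that packages newly made RNA, lies on the minus strand with a gap of 53582 bp. Its sum was 216, 210 and 212 TPM in control mice, 216, 208 and 195 TPM in ethanol mice, 214, 220 and 209 TPM in stress mice, and 215, 257 and 213 TPM in ethanol + stress mice. The fitted difference of the exposed mice from control was 0.02 (SE 0.07, 95% interval -0.14 to 0.17, limma adjusted p = 0.983). The levels overlapped, with ethanol + stress replicate 2 above the rest.

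The remaining neighbours were too low to test. Rnase13, of the ribonuclease A family, was listed at up to 0.326 TPM. Olfr221, an olfactory receptor gene, was listed at up to 0.159 TPM. Gm8586, a processed pseudogene on the plus strand 49676 bp beyond Tmem253, was at 0 in all control and stress mice, at 0.325, 0.748 and 0.613 TPM in ethanol mice, and at 0.324 TPM in ethanol + stress replicate 1.

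**Figure D3:**
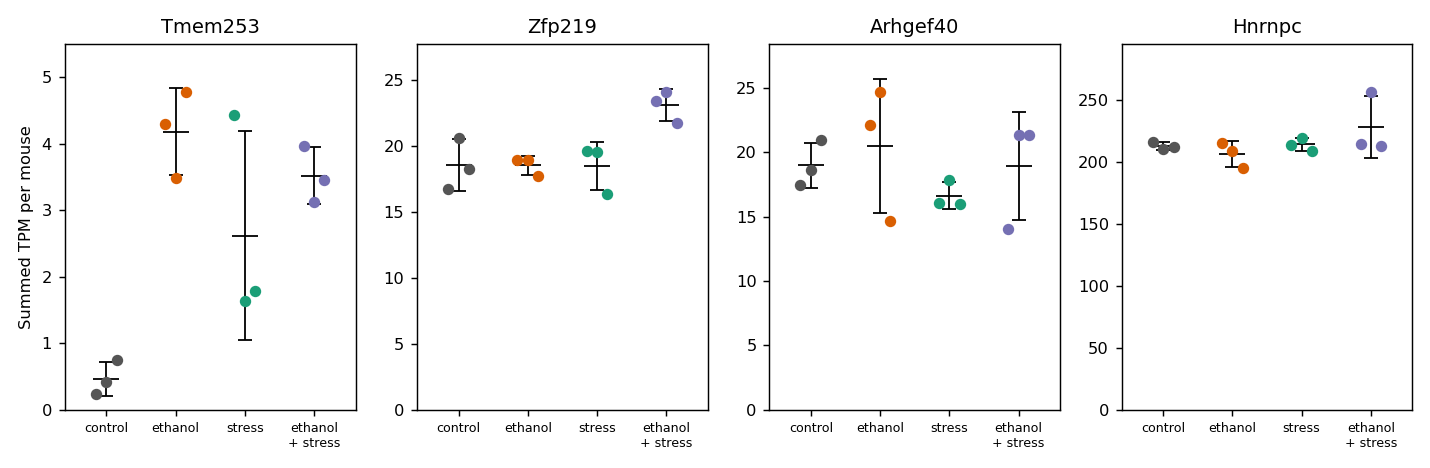
Summed TPM of Tmem253, Zfp219, Arhgef40 and Hnrnpc in each mouse (points) by group, with the group mean (horizontal mark) and SD (bars, n = 3), each panel on its own axis from 0. For Tmem253 the 3 control mice lie below all others, for Arhgef40 and Hnrnpc the groups overlap, and for Zfp219 the ethanol + stress mice at 21.8 to 24.1 TPM stand above the rest.

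Across the 9 exposed mice, the log2 level of Tmem253 was set against that of each tested neighbour, with exact permutation tests, two-sided, adjusted over 6 tests. Pearson's r was 0.224 for Zfp219 (exact permutation p = 0.566), -0.0169 for Arhgef40 (exact permutation p = 0.961) and -0.221 for Hnrnpc (exact permutation p = 0.531). Spearman's rho was -0.100 (exact permutation p = 0.81), -0.183 (exact permutation p = 0.644) and -0.400 (exact permutation p = 0.291), respectively, and every adjusted p was 0.961. Without the 2 mice farthest from the neighbour's median, r was 0.246, 0.0520 and -0.106. No relation between Tmem253 and a tested neighbour was detectable over these 9 mice, which does not show that there was none.

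The genes whose sums were most like Tmem253 over the 12 libraries, by Pearson's r of log2(TPM + 0.5) and given as a description, were Nat8 (r = 0.875), Mfng (r = 0.840), Entpd1 (r = 0.835), Olfr1330 (r = 0.821) and Trim8 (r = 0.818). An r of at least 0.8 was found for 9 of 18418 other genes, or 0.0489%. All 12 points share the gap between control and exposed mice for which Tmem253 was chosen, and over the 9 exposed mice alone r was 0.772 for Nat8, 0.617 for Mfng, 0.313 for Entpd1, 0.844 for Olfr1330 and 0.499 for Trim8. Over those 9 mice an r of at least 0.8 was found for 25 of 18418 genes. Olfr1330 was at 0.134 to 0.305 TPM in control and 0.186 to 0.465 TPM in exposed mice, under the pseudocount of 0.5. Nat8, an N-acetyltransferase gene, was at 0.722 to 0.942 TPM in control and 0.927 to 1.99 TPM in exposed mice. Entpd1, which encodes the ectonucleotidase CD39, was at 7.26 to 10.5 TPM in control and 11.1 to 14.9 TPM in exposed mice.

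Markers of the cells that hippocampal tissue could hold were read in the same libraries. All 67 genes of the 14 marker lists had values and none was at 0 in every library. The summed level of 1 list, red blood cells, was above every control mouse in all 9 exposed mice, at 1603 to 2022 TPM in control and 2454 to 6815 TPM in exposed mice, and each of its 5 genes showed that order. No list showed the opposite order. The 3 ethanol mice had 3472, 6815 and 3146 TPM of red cell markers beside 4.29, 3.48 and 4.78 TPM of Tmem253, so the mouse with the highest red cell level was the lowest of its group for Tmem253. The ethanol + stress mice had 2454, 6480 and 3977 TPM beside 3.97, 3.12 and 3.46 TPM of Tmem253, the opposite order throughout. Stress replicate 1 had 3392 TPM and stress replicates 2 and 3 had 2593 and 2813 TPM, in the same order as their high and low Tmem253 levels. Within each exposed group the exact Poisson intervals of the Tmem253 read pairs overlapped, so these orders lie within counting error. The choroid plexus list ranged from 619 to 1843 TPM in control and from 41.0 to 7240 TPM in exposed mice. Over the 9 exposed mice, Pearson's r between the log2 levels of Tmem253 and the red cell sum was 0.196 (exact permutation p = 0.669) and Spearman's rho was 0.0667 (exact permutation p = 0.88), with an adjusted p of 0.88 for both, and r was 0.459 without the 2 mice farthest from the median red cell level. The part of blood or of choroid plexus tissue in the Tmem253 levels was not tested.

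**Figure D4:**
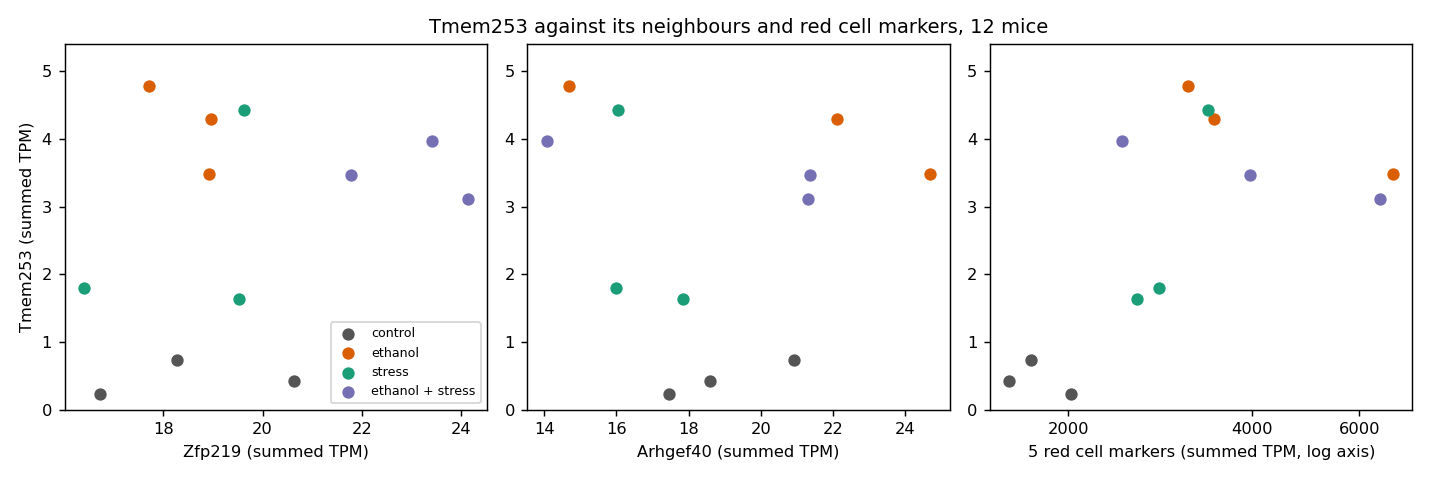
Tmem253 (summed TPM, y axis) against Zfp219, Arhgef40 and the sum of 5 red cell markers (x axes, TPM, the last on a log axis), with 1 point per mouse coloured by group. Over the exposed mice r was 0.224 for Zfp219, -0.0169 for Arhgef40 and 0.196 for the red cell markers (on log2 levels), and the 3 control mice have both the lowest Tmem253 and the lowest red cell levels.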

How the data were processed

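The deposited values are a signal: per the labels and methods, paired-end reads of stranded rRNA-depleted libraries were assigned by the authors with kallisto to mouse transcripts (GRCm38), and the TPM were then scaled, as library sums of 889222 to 1173650 show. The scaling step and the versions are not given in the sources used here. Transcripts were matched by identifier to GENCODE vM21 (113492 of 115270) and summed by gene. Genes and transcripts that reached 0.1 TPM in 6 or more of the 12 libraries were fitted as log2(TPM + 0.5) with limma 3.58.1 (R 4.3.3; lmFit, eBayes with trend) in 1 model of the 4 groups. Calls were made at an unadjusted p under 0.01, as in the study's lists.

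Depth was recovered as the TPM worth 1 read pair, given transcript length and fragment length. At a tolerance of 0.1, 78.9% to 82.1% of low values were then whole. This is an estimate, so read pairs served for floors, intervals and an alternative only. Nothing shows that the mice of a group came from different litters, and p-values measure the spread between these mice. Checked on simulated data for ethanol + stress against ethanol over 18419 genes, 92% of 100 genes changed by 1 and 96% of 100 changed by 2 (log2) were called, and 1.10% of unchanged genes. The changed genes were drawn at random from all tested genes, each with its own spread. These rates were therefore not measured for genes with as few reads as Tmem253.

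Tmem253, its neighbours by position, the genes most like it by r and the marker lists were chosen with earlier results of these data known. Alternatives were other pseudocounts (0.1, 1), scalings and filters, eBayes without trend, a replicate block, only the groups compared, removal of the length trend, read pairs, and leaving out each replicate. Python 3.11.15, pandas 2.3.3, numpy 2.4.6, scipy 1.17.1 and matplotlib 3.10.9 were used.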

Additional observations from a re-analysis of the deposited data

How the results depend on the processing

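Tmem253 stayed above control in 91 of 91 alternatives, as the choice of the gene makes likely, but the size of the log2 difference depended on the pseudocount and unit. With a pseudocount of 0.1 the difference was 2.67 for all exposed mice, 3.01 for ethanol, 2.22 for stress and 2.77 for ethanol + stress. With a pseudocount of 1 it was 1.57, 1.83, 1.24 and 1.64, and in read pairs 1.41, 1.65, 1.17 and 1.40, for exposed, ethanol, stress and ethanol + stress in that order. Leaving out 1 replicate gave 1.82 to 2.20 for exposed, 2.12 to 2.50 for ethanol, 1.23 to 1.83 for stress and 1.91 to 2.29 for ethanol + stress.

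Among exposed groups 1 library changed a call at an unadjusted p under 0.01: without stress replicate 1, ethanol + stress against stress was 0.86 and ethanol against stress 1.07, with ranges of 0.25 to 0.86 and 0.47 to 1.07 over all replicates left out. For ethanol + stress against ethanol that range was -0.33 to -0.13. The neighbour calls ranged from 0 to 1 over replicates left out and were 1 with no filter. The 1 call was Zfp219 in ethanol + stress, without control replicate 2 (0.39) or stress replicate 3 (0.31), or with no filter (0.31). Over replicates left out, the exposed difference of Zfp219 ranged from 0.035 to 0.183. The exposed difference of Arhgef40 changed sign in read pairs (0.0012) and ranged from -0.10 to 0.029 over replicates left out, and that of Hnrnpc changed sign after rescaling (-0.060) or removal of the length trend (-0.011) and ranged from -0.010 to 0.035. The r of Arhgef40 was 0.0520 without 2 mice. Neither Arhgef40 nor Hnrnpc passed the threshold where its sign changed, and the cause was not tested.

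The share of Tmem253-202 was 17.8% in read pairs and 42.5% to 49.9% over replicates left out. The number of genes with all exposed above all control values was 39 after rescaling to a common total, with 59 in the opposite order (72 and 38 without rescaling), and 82 to 301 over replicates left out, with 301, 241 and 221 without control replicates 1, 2 and 3, where fewer control values have to be passed, 119 without ethanol replicate 3 and 109 without stress replicate 1.

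Same-numbered mice of different groups did not deviate together more than others (r of -0.17 to 0.16 over 18 pairs, against -0.33 to 0.34 over 36 differently numbered pairs). No pairing by number was detectable, which does not show that there is none. With the replicate block the Tmem253 difference was 2.00 for exposed mice and 0.69 for ethanol against stress, and no call changed. Depth leaves Tmem253-202, Tmem253-203 and Tmem253-204 at or under 3 read pairs, the limit set here, in all but 1, 2 and 0 libraries, respectively.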
